A study of Mus musculus with 6 samples.

Results

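Paired immune receptors of the myeloid lineage were followed here through the Cd300, Siglec, Fcgr, Clec and Lilr/Pir families. The members were all protein-coding rows of the count table whose GENCODE mouse symbol starts with Cd300, Siglec, Fcgr, Clec, Lilr, Pira or *Pirb*. There were 59 members among 55573 rows, and 55480 of those rows matched the annotation. They comprised 30 Clec genes, 12 Cd300 genes, 6 Siglec genes, 5 Fcgr genes and 6 Lilr or Pir genes. By textbook role, 22 were set as activating receptors, 12 as inhibitory receptors and 25 as other (endocytic or adhesive lectins, transport receptors and genes of unclear signalling). The prefix rule reads names only. It therefore also takes in genes that are not receptors of myeloid cells, such as *Clec16a*, an endosomal protein, and *Fcgrt*, the neonatal Fc receptor.

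The study was about axon regeneration, and this comparison asked how *Ezh2* overexpression changes gene expression after optic nerve injury. Adult C57BL/6J mice of both sexes, per the labels and the methods, received AAV2-*GFP* (control group) or AAV2-*Ezh2* (Ezh2 group) in the vitreous. All mice of both groups then had an optic nerve crush 2 weeks later, and retinal cells were sorted 3 days after it. Each group had 3 libraries, and the sort took live cells that bound an antibody to CD90.2, encoded by *Thy1*, after a block with antibody to CD16 and CD32, which are the products of *Fcgr3* and *Fcgr2b*. The number of animals behind each library and the promoter of the vectors were not found in the sources used here, so p values measure the spread between these libraries, which may be technical.

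Activating and inhibitory receptors of these families often sit side by side in the genome and share similar ligand-binding parts. Activating members usually have short tails and signal through adaptors with ITAM motifs, *Tyrobp* (DAP12) and *Fcer1g* (the FcR gamma chain), to the kinase *Syk*. Inhibitory members carry ITIM motifs in their own tails and recruit the phosphatases *Ptpn6* (SHP-1) and *Inpp5d* (SHIP-1). In the retina these receptors are known from microglia, from macrophages around vessels and from monocytes that enter after injury.

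Total counts ranged from 30569933 to 35971192 per library. The CPM value used below scales a gene's counts to the library total. *Ezh2* itself was at 28.8 to 34.6 CPM in the control libraries and at 65.3 to 104.8 CPM in those of the Ezh2 group. The main comparison used the 3 GFP libraries and Ezh2 replicates 1 and 2, as the study left out 1 Ezh2 library, inferred here to be replicate 3. That library stood apart among the members as well. Of the 43 members with enough counts to be tested, 36 were lower in Ezh2 replicate 3 than in both other Ezh2 libraries, and 35 were at or below the highest GFP library. Another 4 members, *Clec2i*, *Lilr4b*, *Lilrb4a* and *Clec9a*, were higher in it than in both other Ezh2 libraries. Results are therefore given for the 5 libraries and again for all 6.

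The labels call the sorted cells retinal ganglion cells. The gate's own gene *Thy1* ranged from 87.2 to 92.6 CPM in the GFP libraries and from 98.9 to 113.8 CPM in the Ezh2 libraries. The 9 markers of retinal ganglion cells summed to between 135.9 and 139.3 CPM in the GFP libraries and to between 153.2 and 167.5 CPM in the Ezh2 libraries. The pool also held RNA of other cells, with *Glul*, a Muller glia gene, at 9540 to 9900 CPM in the GFP libraries and at 6937, 6898 and 5446 CPM in Ezh2 replicates 1 to 3 (log2 fold change -0.48, adjusted p = 2.81e-07, edgeR, 5 libraries). *Ptprc*, the pan-leukocyte gene, was at 195.6 to 250.3 CPM in the GFP libraries and at 309.9, 286.3 and 616.8 CPM in Ezh2 replicates 1 to 3. In such bulk samples, a change in the number of cells of a type and a change in the RNA per cell cannot be told apart.

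More receptors were called higher than lower in the Ezh2 group. In the 5 libraries, 8 members were called higher by edgeR's quasi-likelihood test (Benjamini-Hochberg adjusted p under 0.05 and fold change above 1.5), and 0 were called lower. By size of change, and with positions in GRCm38, they were *Cd300a* (ENSMUSG00000034652, chromosome 11, 114890041 to 114904654), *Clec12a* (ENSMUSG00000053063, chromosome 6, 129342691 to 129365303), *Siglec1* (ENSMUSG00000027322, chromosome 2, 131069220 to 131086765), *Clec4n* (ENSMUSG00000023349, chromosome 6, 123229843 to 123247021), *Cd300lb* (ENSMUSG00000063193, chromosome 11, 114922781 to 114934386), *Clec10a* (ENSMUSG00000000318, chromosome 11, 70156197 to 70170834), *Lilrb4a* (ENSMUSG00000112148, chromosome 10, 51490956 to 51496611) and *Lilr4b* (ENSMUSG00000112023, chromosome 10, 51480632 to 51486703). These are 18.6% of the 43 tested members, beside 2.45% of all 20241 tested genes called higher and 1.27% called lower. The median log2 fold change was 0.41 over the tested members and -0.01 over all tested genes. For members below 0, the unadjusted p was under 0.05 in 3 (*Cd300ld*, *Clec2l* and *Siglecf*), and DESeq2 and limma-voom also called 0 lower. The adjusted p alone was under 0.05 for 15 members, all of them higher, beside 1899 higher and 1431 lower of all 20241 tested genes. The other 7 of these 15 members had folds below 1.5 and were *Cd300c2*, *Cd300lf*, *Clec2d*, *Fcgr1*, *Fcgr2b*, *Fcgr3* and *Pirb*.

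With all 6 libraries, 5 members were called higher (*Cd300a*, *Clec12a*, *Clec4n*, *Lilrb4a* and *Siglec1*) and 0 lower by edgeR, again with 3 members below 0 at an unadjusted p under 0.05. All 5 were among the 8. The background was 1.6% of 19732 genes called higher and 0.811% called lower. The groups did not overlap, with every Ezh2 library above every GFP library, for 23 of the 43 members in the 5 libraries (21.5% of all tested genes), and for 7 of 42 in all 6 libraries (14.9%). Every Ezh2 library lay below every GFP library for 4 members in both comparisons (23.4% and 19.3% of all tested genes). The 43 members passed a filter on low counts, so these counts do not describe all 59. Some tested members were still scarce, such as *Clec4b1* at 0.03 to 0.37 CPM.

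**Figure D1:**
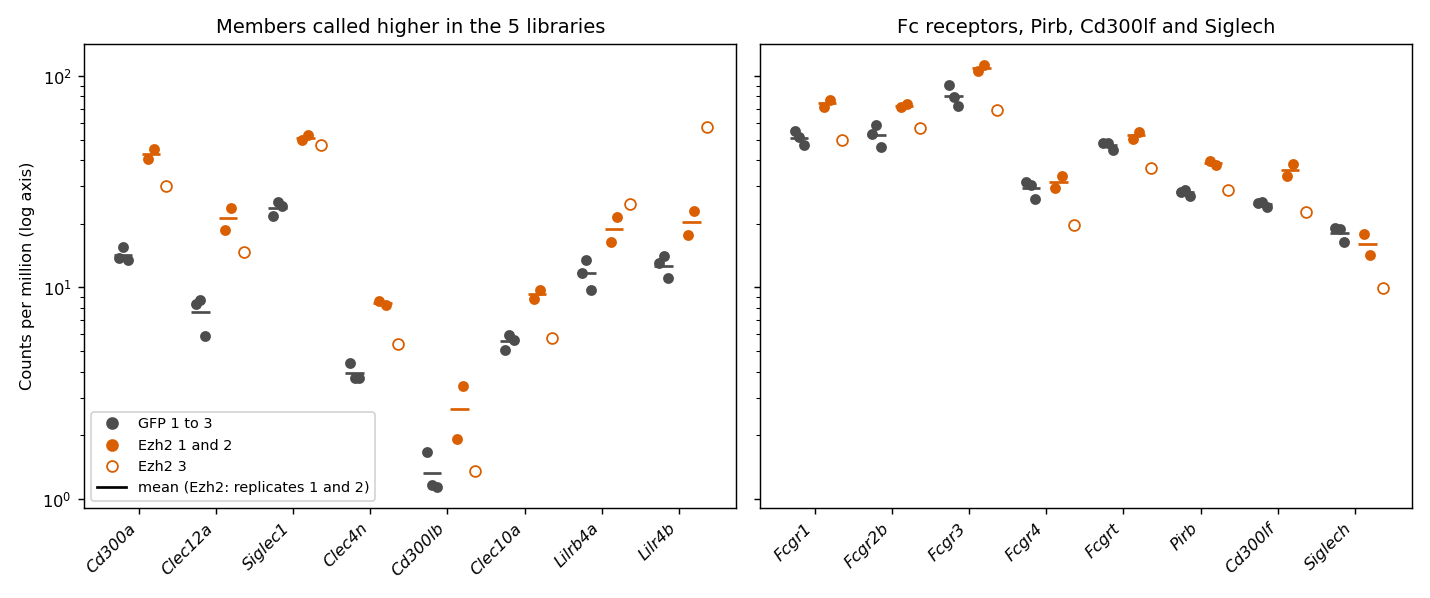
CPM in every library (log axis) for the 8 members called higher in the 5 libraries (left) and for the Fc receptors, *Pirb*, *Cd300lf* and *Siglech* (right); points are libraries and short lines are means of GFP 1 to 3 and of Ezh2 1 and 2. Ezh2 1 and 2 lie above all GFP libraries for each gene on the left, whereas Ezh2 3 falls back among or near the GFP libraries for *Cd300lb* and *Clec10a* and lies far above them for *Lilr4b*.

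For 4 of the 8 called members the RefSeq table (GRCm38.p6) gave the sequence around the gene's start, from 250 bases before to 50 bases after it, and these are shown because they are the promoters of the receptors that rose. Capitals mark GAGGAA or TTCCTC, the core letters that PU.1 (encoded by *Spi1*), a transcription factor of myeloid cells, is known to bind, read on both strands. The positions are chr11:114889791-114890090 on the plus strand for *Cd300a*, chr6:129349994-129350293 on the plus strand for *Clec12a*, chr11:114934322-114934621 on the minus strand for *Cd300lb* and chr10:51480362-51480661 on the plus strand for *Lilr4b*. The start that RefSeq gives lies within 20 bases of the GENCODE start for *Cd300a*, *Cd300lb* and *Lilr4b*, but 7553 bases inside the GENCODE gene for *Clec12a*, so the *Clec12a* window lies inside the GENCODE gene and not at its outer end.
Cd300a: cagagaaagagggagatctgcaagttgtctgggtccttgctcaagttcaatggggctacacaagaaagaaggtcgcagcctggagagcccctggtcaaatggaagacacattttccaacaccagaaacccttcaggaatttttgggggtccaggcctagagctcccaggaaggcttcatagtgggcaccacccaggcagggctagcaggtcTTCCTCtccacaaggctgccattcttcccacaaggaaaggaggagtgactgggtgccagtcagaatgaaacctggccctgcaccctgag
Clec12a: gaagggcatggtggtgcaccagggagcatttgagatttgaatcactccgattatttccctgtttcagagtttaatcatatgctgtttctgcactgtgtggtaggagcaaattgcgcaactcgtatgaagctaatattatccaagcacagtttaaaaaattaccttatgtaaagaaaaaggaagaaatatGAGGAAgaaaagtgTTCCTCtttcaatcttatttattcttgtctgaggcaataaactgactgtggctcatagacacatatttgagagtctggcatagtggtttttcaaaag
Cd300lb: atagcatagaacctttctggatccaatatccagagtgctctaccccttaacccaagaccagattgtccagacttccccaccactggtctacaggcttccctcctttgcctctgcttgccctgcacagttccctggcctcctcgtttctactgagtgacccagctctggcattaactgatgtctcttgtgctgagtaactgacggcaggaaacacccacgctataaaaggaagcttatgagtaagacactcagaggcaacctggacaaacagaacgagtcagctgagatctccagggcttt
Lilr4b: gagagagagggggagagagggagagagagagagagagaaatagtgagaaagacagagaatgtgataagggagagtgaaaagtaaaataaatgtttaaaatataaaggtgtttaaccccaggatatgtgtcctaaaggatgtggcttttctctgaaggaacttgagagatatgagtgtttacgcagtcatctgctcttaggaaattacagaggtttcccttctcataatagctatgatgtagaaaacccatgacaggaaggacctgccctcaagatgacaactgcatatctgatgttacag
The letters occurred once in the *Cd300a* window, 39 bases before the start, and at 2 places in the *Clec12a* window, the nearer 47 bases before the start. The other 2 windows did not hold them. The table matched 48 members with 52 windows, of which 33 (63.5%) held the letters, beside 28.3% of all 32851 windows. Member windows had a median GC content of 47.2% and a median of 3 CpG sites, compared to 52.7% and 7 over all windows. By family, the letters were in 7 of 10 Cd300 windows, 14 of 26 Clec windows, 4 of 6 Fcgr windows, 4 of 5 Lilr and Pir windows and 4 of 5 Siglec windows. Among windows of tested members that were not called, 68.4% held them, beside 2 of the 4 of called members. *Spi1* itself was at 29.5, 31.7 and 28.3 CPM in the GFP libraries and 42.0, 42.6 and 30.6 CPM in Ezh2 replicates 1 to 3, with an adjusted p of 2.08e-04 by edgeR and a fold of 1.43 in the 5 libraries. In all 6 libraries its adjusted p was 0.0997 and the groups overlapped.

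The Cd300 family holds receptors that bind phospholipids and lipoproteins on dying cells. All 12 genes lie on chromosome 11, and 6 of them were tested. *Cd300lg*, at 102041509 to 102055620, lies apart from the others, which begin at 114890041. *Cd300a*, an inhibitory receptor for phosphatidylserine and phosphatidylethanolamine, changed most. It was at 13.8, 15.6 and 13.5 CPM in the GFP libraries, at 40.3 and 45.2 CPM in Ezh2 replicates 1 and 2, and at 30.1 CPM in Ezh2 replicate 3. All Ezh2 libraries were well above all GFP libraries. The change was 1.59 ± 0.09 on the log2 scale (SE), a fold of 3.01, with an adjusted p of 1.13e-08 in the 5 libraries, and 1.46 with an adjusted p of 0.00246 in all 6 (edgeR).

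*Cd300lf*, the other ITIM receptor of the family, differed less. Its levels were 25.2, 25.4 and 24.1 CPM in the GFP libraries, 33.5 and 38.3 CPM in Ezh2 replicates 1 and 2, and 22.7 CPM in replicate 3, the lowest of all. A log2 fold change of 0.54 ± 0.08 was found, with an adjusted p of 3.07e-04 by edgeR in the 5 libraries, and the fold of 1.45 stayed under the limit. Per length of exon, *Cd300a* stood to *Cd300lf* at 0.624 ± 0.036 in the GFP libraries (SD, n = 3), at 1.31 and 1.28 in Ezh2 replicates 1 and 2, and at 1.44 in replicate 3. The balance between these inhibitory receptors thus differed in the same way in each Ezh2 library.

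Of the activating members, *Cd300c2*, which pairs with the FcR gamma chain, was the most abundant Cd300 gene per length. It was measured at 25.3, 35.5 and 25.6 CPM in the GFP libraries, and at 38.6, 46.7 and 30.3 CPM in Ezh2 replicates 1 to 3. Between groups it differed by 0.58 ± 0.12 on the log2 scale, with an adjusted p of 0.0042 by edgeR in the 5 libraries, at a fold of 1.49. *Cd300lb*, which pairs with *Tyrobp*, was called higher from low levels of 1.67, 1.17 and 1.14 CPM in the GFP libraries and 1.93 and 3.43 CPM in Ezh2 replicates 1 and 2. Ezh2 replicate 3 was at 1.36 CPM, inside the GFP range. The log2 fold change of 1.03 ± 0.32 had an adjusted p of 0.0385 by edgeR, and the call was lost with all 6 libraries, with limma-voom, without GFP replicate 2, without GFP replicate 3 or without Ezh2 replicate 2.

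*Cd300ld* moved the other way without passing the test. It was at 2.06, 1.45 and 1.30 CPM in the GFP libraries and at 0.93, 0.66 and 0.67 CPM in the Ezh2 libraries, with an adjusted p of 0.079 by edgeR in the 5 libraries. *Cd300c*, with levels of 0.22 to 0.78 CPM, was not called. The remaining Cd300 genes were not tested. *Cd300ld4* and *Cd300ld5* had no count in any library, which allows up to 3 counts or 0.0834 to 0.0981 CPM, and *Cd300ld2*, *Cd300ld3* and *Cd300lg* were at 0.16 CPM or less in every library. *Cd300e* had 40 counts (1.26 CPM) in GFP replicate 2 and 2 to 10 counts in each other library. The family summed to 68.9, 81.1 and 66.2 CPM in the GFP libraries and to 116.5, 134.9 and 85.7 CPM in the Ezh2 libraries.

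**Figure D2:**
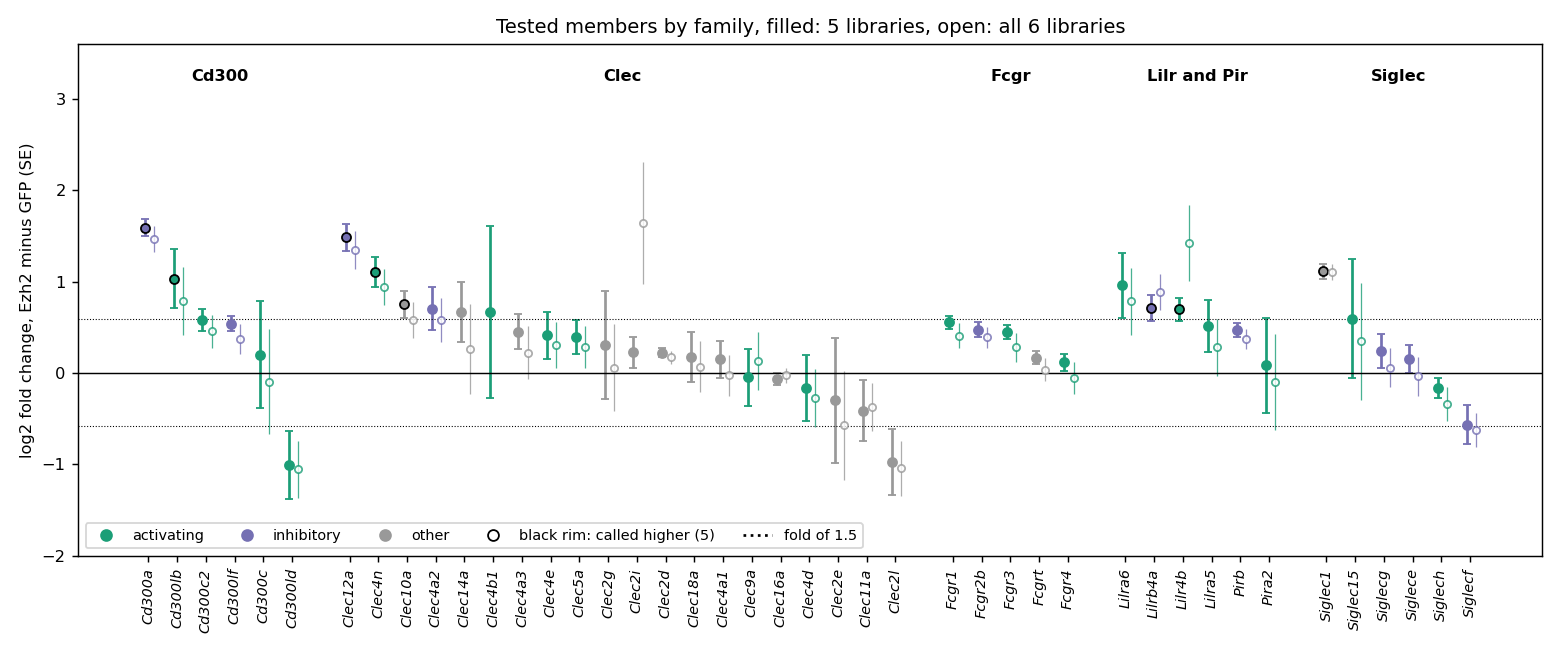
Log2 fold changes of Ezh2 against GFP with their SE for the 43 tested members by family, coloured by textbook role; filled points are the 5 libraries, open points all 6, a black rim marks the 8 called higher, and dotted lines mark a fold of 1.5. The called genes have the largest rises of the Cd300, Clec and Siglec families, *Lilra6* lies above both called genes of the Lilr and Pir family with a wide error, the Fcgr points lie between 0.12 and 0.56 in the 5 libraries, and *Clec2i* and *Lilr4b* move far up when Ezh2 replicate 3 is added.

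Siglec receptors bind sialic acids on cell surfaces. *Siglec1* (sialoadhesin, CD169), an adhesion receptor of macrophages that lacks an ITIM, was the most even of the called genes. It was measured at 21.7, 25.2 and 24.2 CPM in the GFP libraries and at 49.5, 52.4 and 47.3 CPM in Ezh2 replicates 1 to 3. The groups were clearly separate, also with Ezh2 replicate 3. The log2 fold change was 1.11 ± 0.08 in the 5 libraries (adjusted p = 1.36e-07, edgeR), a fold of 2.16, and 1.11 in all 6 (adjusted p = 0.00111).

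No other Siglec was called. *Siglech*, an activating receptor found on microglia and on plasmacytoid dendritic cells, was at 19.1, 18.8 and 16.5 CPM in the GFP libraries and at 17.9, 14.2 and 9.90 CPM in the Ezh2 libraries, with Ezh2 replicate 1 inside the GFP range. Its log2 fold change was -0.16 ± 0.11 (adjusted p = 0.368, edgeR) in the 5 libraries. *Siglecf*, an ITIM receptor typical of eosinophils and of alveolar macrophages, was lower in each Ezh2 library (3.14, 2.80 and 2.45 CPM) than in each GFP library (4.97, 4.01 and 4.29 CPM), with an adjusted p of 0.0817 by edgeR. *Siglece* and *Siglecg*, both inhibitory, gave log2 fold changes of 0.15 and 0.24 and adjusted p values of 0.562 and 0.433 by edgeR. *Siglec15*, an activating receptor of osteoclasts, was at 0.19 to 0.75 CPM and was not called.

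The Fcgr family holds the receptors for the Fc part of IgG. These were among the more abundant members, and *Fcgr3* was the most abundant of them per length. *Fcgr1* (CD64, the high-affinity receptor) was at 54.7, 51.2 and 47.2 CPM in the GFP libraries, at 71.5 and 77.1 CPM in Ezh2 replicates 1 and 2, and at 49.9 CPM in Ezh2 replicate 3. Its log2 fold change was 0.56 ± 0.07 (adjusted p = 6.86e-05, edgeR) in the 5 libraries and 0.41 (adjusted p = 0.126) in all 6. The fold of 1.47 in the 5 libraries was just under the limit. None of the 5 Fcgr genes was called by edgeR, DESeq2 or limma-voom, although before adjustment edgeR gave p under 0.05 for 4 of them in the 5 libraries and for 2 in all 6.

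The remaining activating receptors differed from each other. *Fcgr3* (CD16) was at 90.5, 79.4 and 72.2 CPM in the GFP libraries, at 105.4 and 112.5 CPM in Ezh2 replicates 1 and 2, and at 69.3 CPM in replicate 3, the lowest of the 6 libraries. In the test its log2 fold change was 0.45 ± 0.08 (adjusted p = 7.82e-04, edgeR) in the 5 libraries. *Fcgr4* was at 31.6, 30.6 and 26.1 CPM in the GFP libraries and at 29.6, 33.6 and 19.7 CPM in the Ezh2 libraries, so the groups overlapped. Its log2 fold change was 0.12 ± 0.09 in the 5 libraries (adjusted p = 0.468, edgeR) and turned to -0.06 in all 6.

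*Fcgr2b* (CD32B) is the inhibitory Fc receptor. It was at 53.2, 58.4 and 46.0 CPM in the GFP libraries and at 71.1, 73.7 and 56.7 CPM in the Ezh2 libraries, with Ezh2 replicate 3 inside the GFP range. In log2 terms the difference was 0.47 ± 0.08 (adjusted p = 8.06e-04, edgeR) in the 5 libraries. Per length of exon, *Fcgr2b* stood to the sum of *Fcgr1*, *Fcgr3* and *Fcgr4* at 0.101 ± 0.010 in the GFP libraries (SD, n = 3) and at 0.110, 0.105 and 0.131 in Ezh2 replicates 1 to 3. The ratio in Ezh2 replicates 1 and 2 lay inside the range of the GFP libraries, 0.0933 to 0.112. An antisense gene, *Gm38204*, overlaps *Fcgr2b*, and the use of strand in counting is not known here. *Fcgrt*, which carries IgG and albumin through cells and does not signal as an immune receptor, reached 48.4, 48.0 and 44.7 CPM in the GFP libraries and 50.5, 54.1 and 36.6 CPM in the Ezh2 libraries, with an adjusted p of 0.134 by edgeR in the 5 libraries.

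The Clec genes encode C-type lectins and related proteins, and 22 of the 30 lie on chromosome 6. Of the 20 tested, 3 were called higher. *Clec12a*, an ITIM receptor for uric acid crystals and dead cells, was at 8.31, 8.75 and 5.89 CPM in the GFP libraries and at 18.6, 23.8 and 14.7 CPM in Ezh2 replicates 1 to 3. No Ezh2 library overlapped a GFP library. On the log2 scale the difference was 1.48 ± 0.15 (adjusted p = 5.86e-06, edgeR) in the 5 libraries, a fold of 2.79, and 1.35 (adjusted p = 0.0141) in all 6.

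*Clec4n* (dectin-2), which binds mannans of fungi and signals through the FcR gamma chain, was at 4.38, 3.73 and 3.74 CPM in the GFP libraries and at 8.63, 8.22 and 5.39 CPM in the Ezh2 libraries. Here too each Ezh2 library was above each GFP library. This gave a log2 fold change of 1.10 ± 0.16 (adjusted p = 2.16e-04, edgeR) in the 5 libraries and 0.94 (adjusted p = 0.0395) in all 6. *Clec10a* (a galactose-type lectin of macrophages and dendritic cells, CD301) was at 5.07, 5.97 and 5.63 CPM in the GFP libraries and at 8.85 and 9.68 CPM in Ezh2 replicates 1 and 2. Ezh2 replicate 3, at 5.78 CPM, was inside the GFP range. For this lectin the log2 fold change was 0.75 ± 0.15 (adjusted p = 0.00228, edgeR) in the 5 libraries and 0.58 (adjusted p = 0.127) in all 6.

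Other Clec receptors of myeloid cells on chromosome 6 were not called by edgeR in the 5 libraries. *Clec4a2*, an ITIM receptor of myeloid cells, was at 3.47, 2.24 and 2.34 CPM in the GFP libraries and at 4.38, 4.28 and 3.11 CPM in the Ezh2 libraries, with an adjusted p of 0.0541 by edgeR in the 5 libraries. DESeq2 and limma-voom called it higher. The activating receptors *Clec4d* and *Clec4e* (mincle), which sense microbial glycolipids and dead cells, gave log2 fold changes of -0.16 and 0.41 and adjusted p values of 0.814 and 0.328 by edgeR. *Clec5a*, which pairs with *Tyrobp*, was at 5.73 to 10.3 CPM in the GFP libraries and at 7.34 to 10.7 CPM in the Ezh2 libraries. *Clec9a*, which marks cross-presenting dendritic cells and senses actin of dead cells, was at 1.497 to 2.72 CPM in the GFP libraries and at 1.58 to 2.59 CPM in the Ezh2 libraries.

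The most abundant Clec genes per length were not those that moved most. *Clec2d*, a ligand of a natural killer cell receptor, was at 216.5, 216.3 and 203.5 CPM in the GFP libraries and at 245.4, 245.0 and 206.9 CPM in the Ezh2 libraries, and its log2 fold change was 0.22 ± 0.05 (adjusted p = 0.0059, edgeR). *Clec16a* was at 62.6 to 73.8 CPM over all 6 libraries, with a log2 fold change of -0.07 ± 0.07 (adjusted p = 0.56, edgeR). *Clec2l*, a lectin-like gene known from the brain, was lower in each Ezh2 library (0.87, 0.71 and 0.64 CPM) than in each GFP library (1.31, 1.99 and 1.40 CPM), with an adjusted p of 0.0838 by edgeR. Of the 10 Clec genes that were not tested, *Clec2h*, *Clec3a*, *Clec4b2* and *Clec4f* had no count in any library.

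*Clec7a* (dectin-1, a receptor for beta-glucans that also marks activated microglia) is not a member, because the annotation lists it as a polymorphic pseudogene. It was at 33.8, 33.0 and 26.1 CPM in the GFP libraries and at 69.2, 78.2 and 53.2 CPM in the Ezh2 libraries, and its log2 fold change of 1.26 ± 0.10 (adjusted p = 2.36e-07, edgeR) was past both limits in the 5 libraries and also in all 6. *Clec2f* and *Clec2j*, listed as other kinds of pseudogene, were left out as well. *Clec2f* was not called, and *Clec2j* was not tested.

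Lilr and Pir genes are the mouse counterparts of the human leukocyte immunoglobulin-like receptors. *Pirb*, an ITIM receptor for class I molecules that is also a receptor for the myelin inhibitors of axon growth, was the most abundant of them per length. It was at 28.3, 29.0 and 27.1 CPM in the GFP libraries, at 39.5 and 37.8 CPM in Ezh2 replicates 1 and 2, and at 29.0 CPM in Ezh2 replicate 3. Ezh2 replicate 3 was level with the highest GFP library. The log2 fold change was 0.47 ± 0.07 (adjusted p = 3.74e-04, edgeR) in the 5 libraries, a fold of 1.38, and 0.37 (adjusted p = 0.0946) in all 6.

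Of the genes of its myelin ligands, 1 was called lower. *Omg*, encoding oligodendrocyte myelin glycoprotein, fell from 32.6, 32.5 and 32.2 CPM in the GFP libraries to 18.9, 22.2 and 14.5 CPM in the Ezh2 libraries and was called lower at a log2 fold change of -0.64 ± 0.09 (adjusted p = 1.13e-04, edgeR). *Rtn4* (Nogo) ranged from 1287 to 1352 CPM in the GFP libraries and from 900.0 to 1129 CPM in the Ezh2 libraries, with a log2 fold change of -0.24 ± 0.05 (adjusted p = 0.00198, edgeR) and a fold under the limit. *Mag*, at 1.00 to 2.99 CPM, had a log2 fold change of -0.03.

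The pair *Lilr4b* and *Lilrb4a* on chromosome 10 was called higher. *Lilrb4a*, an ITIM receptor (gp49B), was at 11.7, 13.6 and 9.76 CPM in the GFP libraries and at 16.4, 21.4 and 24.8 CPM in the Ezh2 libraries. *Lilr4b*, its activating neighbour (gp49A), was at 12.99, 14.0 and 11.03 CPM in the GFP libraries, at 17.6 and 23.1 CPM in Ezh2 replicates 1 and 2, and at 57.3 CPM in Ezh2 replicate 3. The log2 fold changes were 0.71 ± 0.14 (adjusted p = 0.00206) and 0.70 ± 0.13 (adjusted p = 0.00133, both edgeR) in the 5 libraries, and both calls were lost without Ezh2 replicate 2.

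The ratio of *Lilr4b* to *Lilrb4a* per length was 1.05 ± 0.05 in the GFP libraries (SD, n = 3), 1.03 in both Ezh2 replicates 1 and 2, and 2.22 in Ezh2 replicate 3. The genes are near-identical in sequence and both overlap the gene *Gm49339* on the same strand, so their reads could have been split between copies and each level is uncertain. With all 6 libraries the log2 fold change of *Lilr4b* rose to 1.42 but its adjusted p was 0.0899, whereas *Lilrb4a* stayed called at 0.89 (adjusted p = 0.0408). The same uncertainty holds for *Pira2*, *Lilra6* and *Pirb*, which resemble each other. *Lilra6*, an activating receptor, had the largest fold of the family (1.94, log2 fold change 0.96 ± 0.36) but from 0.62, 1.23 and 1.30 CPM in the GFP libraries and 2.36, 1.71 and 1.25 CPM in the Ezh2 libraries, and its adjusted p was 0.0808 by edgeR in the 5 libraries. *Pira2*, at 0.41 to 1.54 CPM, and *Lilra5* gave adjusted p values of 0.942 and 0.25.

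Set against each other by role, activating and inhibitory members were both called higher. In the 5 libraries, 3 of the 19 tested activating members (*Cd300lb*, *Clec4n* and *Lilr4b*) and 3 of the 10 tested inhibitory members (*Cd300a*, *Clec12a* and *Lilrb4a*) were called higher, and the medians of their log2 fold changes were 0.45 and 0.51. Of the 14 tested other members, *Siglec1* and *Clec10a* were called and the median was 0.20. With all 6 libraries, 1 activating (*Clec4n*), 3 inhibitory and 1 other member were called, and the medians were 0.28, 0.38 and 0.06. The summed level of the activating members was 260.0, 257.9 and 219.8 CPM in the GFP libraries and 316.4, 341.4 and 260.5 CPM in the Ezh2 libraries. That of the inhibitory members was 159.6, 170.3 and 145.1 CPM in the GFP libraries and 239.9, 261.5 and 191.8 CPM in the Ezh2 libraries. The summed inhibitory level was above the GFP range in each Ezh2 library, while the summed activating level in Ezh2 replicate 3 was only just above it and rested on *Lilr4b*. Without *Lilr4b* the activating sum was 247.0, 243.9 and 208.7 CPM in the GFP libraries. It was 298.8, 318.3 and 203.1 CPM in the Ezh2 libraries, so that Ezh2 replicate 3 was the lowest. The inhibitory sum was not recomputed without its called genes *Cd300a*, *Clec12a* and *Lilrb4a*. Its rise may therefore rest on few genes too. The 2 sums were not treated alike, so they cannot be compared by role. In Ezh2 replicate 3 the most abundant inhibitory members, *Fcgr2b*, *Pirb* and *Cd300lf*, were at 56.7, 29.0 and 22.7 CPM. Their GFP ranges were 46.0 to 58.4, 27.1 to 29.0 and 24.1 to 25.4 CPM. Whether the roles differ from each other was not tested, since members of a role share libraries and are not replicates.

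By family, the medians of the log2 fold changes in the 5 libraries were 0.61 over 6 Lilr and Pir genes, 0.56 over 6 Cd300 genes, 0.45 over 5 Fcgr genes, 0.27 over 20 Clec genes and 0.20 over 6 Siglec genes. In all 6 libraries they were 0.57, 0.41, 0.28, 0.17 and 0.01. The calls were 2, 2, 0, 3 and 1 in the 5 libraries and 1, 1, 0, 2 and 1 in all 6.

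A list of 66 genes held adaptors, kinases, phosphatases and other signalling genes that these receptors use. It also held related receptors outside the name rule and the genes of 3 myelin ligands of *Pirb*. In the 5 libraries, 64 were tested, 12 were called higher and 1 (*Omg*) lower, and the median log2 fold change was 0.38. The higher calls were 18.75% of the tested list, beside 2.45% of all tested genes called higher and 1.27% called lower. In all 6 libraries 10 (15.87%) were called higher and 1 lower, beside 1.6% and 0.811% of all tested genes. The ITAM adaptor *Tyrobp* was at 77.6, 78.1 and 75.6 CPM in the GFP libraries and at 128.3, 149.2 and 96.2 CPM in Ezh2 replicates 1 to 3, so each Ezh2 library was higher. For *Tyrobp* the log2 fold change was 0.86 ± 0.07 (adjusted p = 2.62e-07, edgeR). *Fcer1g*, the other adaptor, was at 51.2, 53.4 and 47.0 CPM in the GFP libraries and at 71.6, 83.4 and 56.9 CPM in the Ezh2 libraries, with a log2 fold change of 0.63 ± 0.08 (adjusted p = 4.16e-05, edgeR), and was not called in all 6.

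Enzymes on both sides of the signal were called higher. *Syk*, the kinase that binds phosphorylated ITAMs, was at 63.9, 68.0 and 55.9 CPM in the GFP libraries and at 99.1, 100.4 and 85.9 CPM in the Ezh2 libraries (log2 fold change 0.68 ± 0.07, adjusted p = 8.19e-06, edgeR). *Ptpn6*, the phosphatase of ITIM receptors, was at 97.6, 99.4 and 89.5 CPM in the GFP libraries and at 144.7, 143.8 and 139.8 CPM in the Ezh2 libraries (log2 fold change 0.61 ± 0.06, adjusted p = 2.28e-06, edgeR). In both genes each Ezh2 library was above each GFP library. *Inpp5d* had a log2 fold change of 0.47 ± 0.05 (adjusted p = 9.43e-06, edgeR) and a fold under the limit. Among the kinases, 2 of 8 were called higher (*Syk* and the *Src*-family kinase *Fgr*), among the 15 genes downstream of ITAMs 1 (the adaptor *Blnk*), and among the 11 phosphatases and negative regulators 1 (*Ptpn6*). *Fgr* and *Blnk* were not called in all 6 libraries (adjusted p = 0.242 and 0.0666, edgeR).

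Of the 23 tested related receptors, 6 were called higher. *Trem2*, a lipid receptor of microglia and macrophages that pairs with *Tyrobp*, was at 53.1, 58.9 and 52.0 CPM in the GFP libraries and at 90.2, 113.8 and 64.8 CPM in the Ezh2 libraries (log2 fold change 0.91 ± 0.09, adjusted p = 3.06e-06, edgeR). *Cd22*, a sialic acid receptor with ITIMs whose symbol does not carry the Siglec prefix, was at 14.4, 14.7 and 13.6 CPM in the GFP libraries and at 25.6, 30.9 and 22.3 CPM in the Ezh2 libraries (log2 fold change 1.00 ± 0.10, adjusted p = 4.66e-06, edgeR). Neither gene's groups overlapped. *Cd200r4*, *Sirpb1b*, *Sirpb1c* and *Treml2* were the others, with log2 fold changes of 1.55, 1.06, 1.08 and 0.77, and of these *Sirpb1b* and *Sirpb1c* were not called in all 6 libraries. *Vav1*, *Pik3cd* and *Nfatc1*, which act downstream of ITAMs, were called higher in all 6 libraries but not in the 5.

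**Figure D3:**
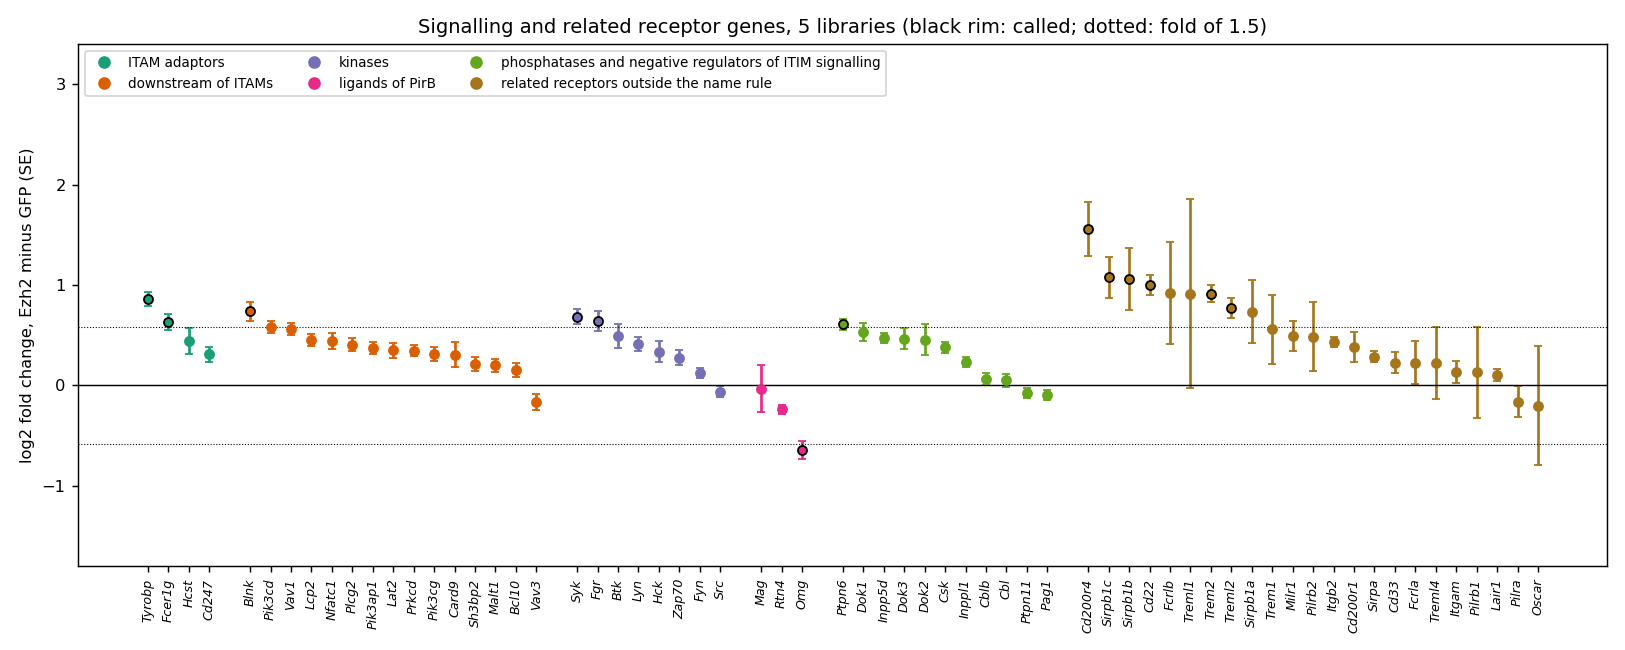
Log2 fold changes of Ezh2 against GFP with their SE in the 5 libraries for the 64 tested signalling and related receptor genes, grouped by function; a black rim marks called genes and dotted lines a fold of 1.5. All 4 adaptor genes (*Tyrobp*, *Fcer1g*, *Hcst* and *Cd247*) lie above 0, although *Hcst* has no ITAM. *Omg* is the called gene below 0, and most points lie between 0 and the upper line.

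Most macrophage and pan-myeloid markers were higher in the Ezh2 group, as most tested receptors were. Of 10 macrophage markers, 9 were tested and 7 were called higher in the 5 libraries (*Cd68*, *Mrc1*, *F13a1*, *Ms4a7*, *Cbr2*, *Pf4* and *Stab1*), with a median log2 fold change of 1.55, and 6 were called in all 6. *Lyve1* went the other way, with a log2 fold change of -0.67 (adjusted p = 0.354, edgeR, 5 libraries). The macrophage list summed to 217.7 to 235.4 CPM in the GFP libraries and to 436.2 to 588.1 CPM in the Ezh2 libraries. The groups were far apart. Of 10 pan-myeloid markers, 4 were called higher (*Fcer1g*, *Tyrobp*, *Cd53* and *Lyz2*), with a median of 0.49, and 2 of them (*Tyrobp* and *Lyz2*) in all 6. *Fcer1g* and *Tyrobp* were also counted in the signalling list above. The pan-myeloid sums ranged from 1575 to 1778 CPM in the GFP libraries and from 3137 to 3643 CPM in the Ezh2 libraries. Without *Lyz2*, the most abundant of the called markers, they ranged from 1246 to 1399 CPM and from 1731 to 1922 CPM. The part of these cells in the receptor results was not tested.

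Markers of microglia moved less. Of 10, 1 was called higher (*Fcrls*) and 1 lower (*Sall1*), with a median of 0.09, and the summed level ranged from 836.4 to 944.3 CPM in the GFP libraries and from 724.7 to 1105 CPM in the Ezh2 libraries, which overlapped. *P2ry12* and *Tmem119*, which define resting microglia, had log2 fold changes of -0.07 and 0.04. *Siglech* is both a member and 1 of these 10 markers.

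Other leukocyte lists were mixed. Of 6 natural killer cell markers, 4 were called higher, with sums of 32.4 to 33.9 CPM in the GFP libraries and 47.8 to 56.3 CPM in the Ezh2 libraries. Of 8 T cell markers 1 was called, and the sum was 397.6 to 427.7 CPM in the GFP libraries, 541.8 and 512.4 CPM in Ezh2 replicates 1 and 2 and 773.5 CPM in replicate 3. Of 8 dendritic cell markers and 7 B cell markers, 0 were called by edgeR in either comparison or by DESeq2 or limma-voom, with 1 and 2 of them at an unadjusted p under 0.05 in the 5 libraries (edgeR). The 10 neutrophil markers summed to at most 1.61 CPM, 2 of them were at 0 in every library, and none was tested.

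Markers of retinal cells moved as well. Of 6 Muller glia and astrocyte markers, 5 lay below 0, 4 of them with an adjusted p under 0.05 and a fold under the limit (edgeR, 5 libraries). *Gfap*, a gene of reactive glia, was the exception and was called higher, at 412.6 to 426.0 CPM in the GFP libraries and 719.3 to 919.3 CPM in the Ezh2 libraries. The list summed to 14810, 14310 and 14790 CPM in the GFP libraries and to 11300, 11680 and 9109 CPM in the Ezh2 libraries, so each Ezh2 library was lower. Of 6 amacrine cell markers, 5 were tested and 1 (*Tfap2b*) was called lower, and the sums were 63.3 to 75.7 CPM in the GFP libraries and 41.6 to 46.3 CPM in the Ezh2 libraries. The part of these shifts in the receptor results was not tested.

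**Figure D4:**
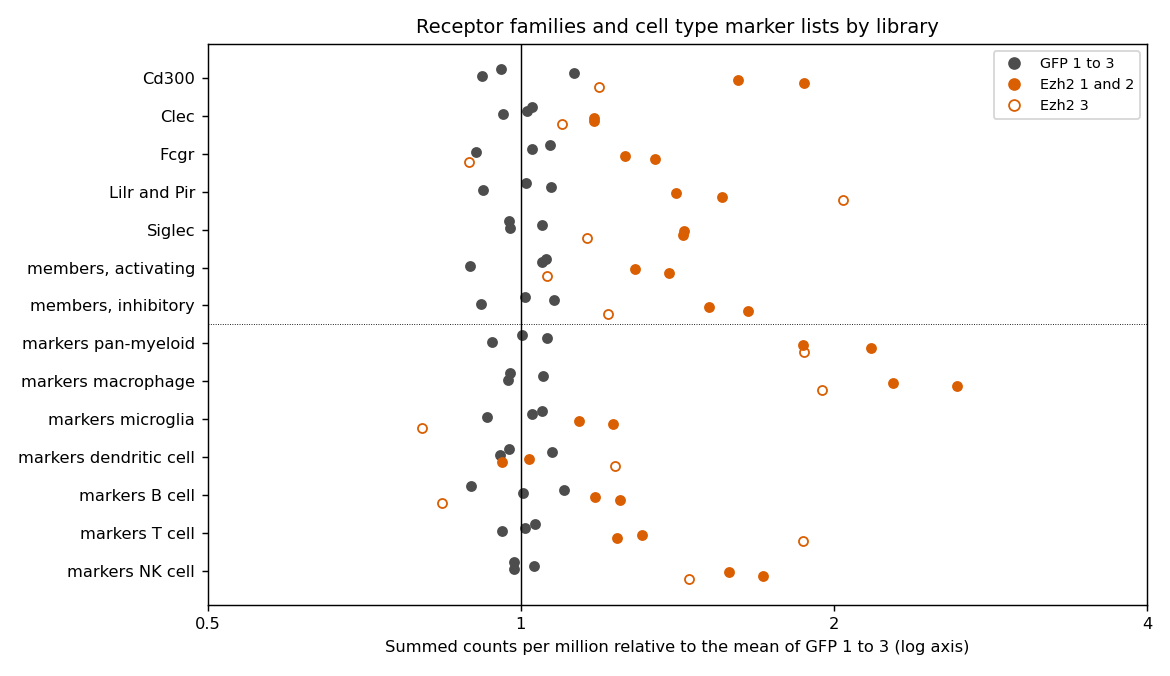
Summed CPM of each receptor family, of activating and inhibitory members and of marker lists in every library, relative to the mean of GFP 1 to 3 (log axis); each point is a library. Ezh2 1 and 2 lie above the GFP libraries for every family and most of all for the macrophage list, while Ezh2 3 lies below 1 for Fcgr, microglia and B cells and to the right of both other Ezh2 libraries for Lilr and Pir and for T cell markers.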

How the data were processed

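RNA-Seq measured total RNA of CD90.2-stained retinal cells in 3 libraries per group. The authors deposited raw counts per Ensembl gene, with no normalization. The submitters' processing notes name STAR 2.7.0d and build GRCm38. The counting program, annotation release and use of strand are not given in the sources used here. All 6 columns matched sample labels, and 0 were left without a sample. Symbols, biotypes, exon lengths and coordinates came from GENCODE M21 (55480 of 55573 identifiers matched).

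All genes left by filterByExpr entered 1 fit in edgeR 4.0.16 (R 4.3.3), by the two-sided quasi-likelihood F test with TMM scaling and group as the only term. Calls needed both a Benjamini-Hochberg adjusted p below 0.05 and a change of over 1.5 times. The F statistic gave the SE. Library totals scaled the CPM values, and levels per length also used the exon length. A count of 0 allows 3 counts. Floors cover counting error only, as reads carried no molecular identifiers.

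The main comparison left out Ezh2 replicate 3, the library inferred to be missing from the heatmaps of the study. Further settings were the fit to all 6 libraries, the replicate number as a block, leaving out single libraries, DESeq2 1.42.0, limma-voom (limma 3.58.1), other scalings, other filters and the adjusted p alone. Robust estimation of the quasi-dispersion and the sums without *Lilr4b* or *Lyz2* were added after seeing the data. The fit was tested on simulated counts.

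The members, roles, lists and rules were chosen with earlier results of these data known. Named were the called members, the 2 most abundant per length in each family, *Pirb*, the Fcgr genes, the called signalling genes and *Tyrobp*, *Fcer1g*, *Syk*, *Ptpn6* and *Inpp5d*. Other genes and the promoter letters were chosen after their values were seen. Protein sequences were not used here, and some marker results are not reported here. Pictures were drawn with matplotlib 3.10.9.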

Additional observations from a re-analysis of the deposited data

Results flagged for a closer look

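Ezh2 replicate 3, which was not part of the main comparison, held 2 members more than 1.5 times above the highest of the other 5 libraries and at 50 counts or more. *Clec2i*, a lectin-like ligand of natural killer cell receptors, was at 43.3 CPM in it, compared to 5.17 to 7.98 CPM in the other libraries. *Lilr4b* was at 57.3 CPM in it, compared to 11.03 to 23.1 CPM. In the same library *Ptprc* was at 616.8 CPM and the T cell markers summed to 773.5 CPM, each the highest of the 6 libraries, whereas the microglia markers were lowest at 724.7 CPM. The part of these in both results was not tested.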

How the results depend on the processing

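Among the members, the count called higher was 8 in the 5 libraries and 5 in all 6. It was 5 to 11 when 1 of the 5 libraries was left out, lowest without Ezh2 replicate 2, and 2 to 4 when 1 of the 6 was left out. By the adjusted p alone it was 15, where 1899 of all 20241 tested genes were higher and 1431 lower. It was 8 to 10 with DESeq2, limma-voom, other scalings, other filters or robust dispersion. No setting called a member lower. Ezh2 replicate 3 was never the library left out of the 6, here or below, because leaving it out gives the main comparison. Libraries with the same replicate number shared only a number, since their deviations from the means of their groups correlated at -0.0127 to -0.00602. With it as a block, 8 members were called in the 5 libraries, 7 of them shared with the unblocked fit (*Cd300lb* was lost), and 3 in all 6. *Cd300a* and *Siglec1* were called in every setting. Of the signalling list, 12 were called higher, 37 by the adjusted p alone and 9 to 15 when 1 of the 5 libraries was left out. The count was 0 to 8 when 1 of the 6 was left out. The count called lower was 1, was 2 by the adjusted p alone, and was 0 to 1 when a library was left out. Robust dispersion, DESeq2, RLE scaling, library totals and both filters left all 35 named genes on the same side of the limits. Directions turned for 3 genes, none of them called. *Clec16a* (-0.07) turned to 0.023 in all 6 libraries without GFP replicate 3 and to 0.019 without Ezh2 replicate 2. *Fcgrt* (0.17) turned to -0.071 in all 6 libraries without Ezh2 replicate 2, and was at 0.1 or above in the fits based on the 5. *Fcgr4* (0.12) turned to -0.058 in all 6, to -0.08 with the block in all 6, and to -0.218, -0.137, -0.093, -0.027 and -0.003 when 1 of the 6 was left out. The causes were not tested. In the tested members the SE was widest at levels under 1 CPM, such as 0.94 for *Clec4b1*, which limits what the counts can show for scarce receptors.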

Other observations

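Among leukocyte genes outside the receptors, *Lyz2*, encoding a lysozyme of myeloid cells, was at 373.8, 379.5 and 329.2 CPM in the GFP libraries and at 1406, 1868 and 1223 CPM in the Ezh2 libraries, a fold of 4.58 in the 5 libraries. *Stab1*, a scavenger receptor of macrophages, was at 55.4, 64.4 and 62.2 CPM and at 218.5, 242.3 and 206.9 CPM. *Chil3*, a chitinase-like gene of monocytes and macrophages, went from at most 0.632 CPM in the GFP libraries to between 5.03 and 10.7 CPM in the Ezh2 libraries. All 3 genes were called higher by edgeR in the 5 libraries, and no Ezh2 library overlapped a GFP library. *Vcan*, a proteoglycan gene of monocytes that other cells also express, was called lower, at 32.5, 36.02 and 36.3 CPM in the GFP libraries and 20.1, 21.8 and 18.99 CPM in the Ezh2 libraries. *Sall1*, a transcription factor of microglia, was called lower as well, at 27.2 to 30.1 CPM in the GFP libraries and 14.4 to 20.6 CPM in the Ezh2 libraries.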
